A study of Mus musculus with 20 samples.

Results

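The 10 genes followed here are used as markers of the choroid plexus epithelium, and they were measured in the left hemi-brain of mice at 18 months of age (18 MO): Ttr, Tmem72, Kl, Folr1, Kcnj13, Clic6, Otx2, Aqp1, Enpp2 and Kcne2. They are 10 of the 55291 gene symbols counted. The list was chosen by name as markers, and Tmem72 was set against the other 9 because its measured level in APOE4 against APOE3 had already been seen to stand apart. The rule reads the levels in all 4 genotypes. The values of Tmem72 are therefore a description in every comparison, with no test, and nothing is supported with them.

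RNA was sequenced from 20 female C57bl/6 mice in which the mouse Apoe gene is replaced by a human APOE allele under the endogenous promoter, all homozygous and all aged 18 months. There were 5 mice each of APOE4, APOE4D, APOE2 and APOE3. Mouse IDs beginning with FH are FH78 and FH66 in APOE4, FH85, FH68 and FH51 in APOE4D, and FH124 and FH111 in APOE2. No APOE3 mouse has such an ID. Leaving the FH mice out thus shrinks every group but APOE3. Whether a call lost that way was lost to these mice or to fewer libraries cannot be told apart. The APOE4D mice carry that name in their titles and APOE4 as their genotype, and the sources used here do not say what sets them apart from APOE4. Each library is 1 hemi-brain of 1 mouse. Because a hemi-brain was sequenced whole, fewer choroid plexus cells and less RNA per choroid plexus cell cannot be told apart.

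The choroid plexus is a frond of capillaries and stroma inside each brain ventricle, covered by a single sheet of epithelial cells that secretes the cerebrospinal fluid. Its epithelium moves sodium, chloride, bicarbonate and water from blood to ventricle, makes the carrier protein transthyretin, and takes up folate and hormones for the brain. Since these cells are a small part of the brain, a whole hemi-brain library sees them through a few genes that other brain cells use little or not at all. That holds less well for some of the 10: Enpp2 is also made by oligodendrocytes, and Otx2 is active in parts of the thalamus, midbrain and pineal gland.

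The libraries held 32404258 to 51960932 reads assigned to genes. The APOE4D libraries (32404258 to 37947330 reads) and most APOE4 libraries were shallower than those of APOE2 (42723532 to 44852581) and APOE3 (43051666 to 51960932). One APOE3 library, F61N, had 48 reads of Xist, the RNA of the inactive X chromosome, where the other 19 had 12151 to 24959. F61N had 5 reads from the Y chromosome, within the range of 0 to 6 over all 20 libraries. Why Xist was low in F61N was not tested. Brain markers were high in all 20 libraries (Snap25, a synaptic protein, 3060 to 3825 reads scaled to CPM, that is to counts relative to library size), the cerebellar markers Gabra6 and Pcp2 were at most 0.163 and 0.279 CPM, and the pituitary hormone gene Prl reached 32.6 CPM in F95K (APOE4) and 19.4 CPM in F39N (APOE3), against at most 3.73 CPM in the others.

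Each of the 10 markers was measured well above the filter of 0.1 CPM in every library, and of a further list of 36 choroid plexus epithelium genes all 36 passed it. CPM here are scaled between libraries by TMM, a factor that corrects for differences in library composition. Divided by the length of the canonical transcript in GENCODE (an annotation of the later mouse build GRCm39), Ttr was at a median of 536 CPM per kb, Enpp2 at 74.2, Clic6 at 4.67, Folr1 at 3.83, Kl at 3.60, Kcne2 at 1.96, Aqp1 at 1.69, Otx2 at 1.52 and Kcnj13 at 0.853 CPM per kb. Over the 20 libraries the ranges of Folr1 (2.77 to 5.20 CPM per kb) and Kl (2.94 to 4.60) overlapped, as did those of Kcne2, Aqp1 and Otx2. Tmem72 was at 0.436 CPM per kb of a canonical transcript of 17162 bases, but its shortest annotated transcript has 782 bases, so its place in this order depends on which transcript is used.

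Tmem72 encodes a small membrane protein whose function is poorly known. It lies on the minus strand of chromosome 6 (GRCm38, 116691539 to 116716982) and no other annotated gene overlaps it. Of the other members, Aqp1 lies far from it on the same chromosome (55336299 to 55348555), and Kcne2 and Clic6 lie near each other on chromosome 16 (92292389 to 92298133 and 92498147 to 92541241). Folr1, Kcnj13, Enpp2, Ttr, Clic6 and Otx2 each overlap at least 1 other annotated gene. No source used here says whether the counting was strand-specific, so reads of these overlaps cannot be assigned with certainty.

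The 250 bases before a RefSeq transcript start of 3 members are shown so that Tmem72 can be read beside other members. For Kcnj13 and Aqp1 this start is the outer end of the gene. For Tmem72 it is an inner start at position 116716758, so that 224 of the 250 bases lie inside the gene as annotated above. Capitals mark TAATC on either strand, the core of the sequence that OTX2, the homeodomain factor among the 10 markers, is known to bind. The sequences are from RefSeq on GRCm38.p6.
Tmem72, before its inner start (chr6:116716759-116717008, minus strand): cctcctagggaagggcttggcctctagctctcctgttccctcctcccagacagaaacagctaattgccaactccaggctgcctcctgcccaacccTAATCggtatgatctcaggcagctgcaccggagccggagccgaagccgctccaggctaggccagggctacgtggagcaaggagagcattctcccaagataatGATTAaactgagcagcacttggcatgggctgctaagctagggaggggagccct
Kcnj13 promoter (chr1:87394730-87394979, minus strand): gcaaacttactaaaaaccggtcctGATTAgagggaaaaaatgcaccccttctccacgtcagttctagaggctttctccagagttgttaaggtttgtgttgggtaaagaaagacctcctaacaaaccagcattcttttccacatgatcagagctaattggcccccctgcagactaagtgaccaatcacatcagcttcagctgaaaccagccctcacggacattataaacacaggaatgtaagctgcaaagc
Aqp1 promoter (chr6:55336049-55336298, plus strand): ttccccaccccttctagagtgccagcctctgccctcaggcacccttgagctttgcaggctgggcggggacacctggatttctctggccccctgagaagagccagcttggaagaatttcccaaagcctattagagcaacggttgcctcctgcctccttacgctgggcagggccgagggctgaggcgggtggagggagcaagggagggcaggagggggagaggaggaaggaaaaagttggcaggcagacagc
TAATC occurred at 2 places in the Tmem72 window, at 1 in that of Kcnj13 and at none in that of Aqp1. Start sites were found in the RefSeq table for 6 of the 10 members, and 4 of these 6 had the motif in at least 1 of their windows. Counted by window, as for all genes below, 4 of the 10 windows of these members held it. Of all 32851 such windows, 19.8% held TAATC, so a match by itself is common. The longer form TAATCC, held by 6.25% of all windows, was found in 1 of the 10 windows of the members, at Otx2 itself. These matches describe letters and not bound sites.

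Tmem72 was higher in all APOE4 and APOE4D libraries than in any APOE2 or APOE3 library. It was at 9.02, 12.1, 8.14, 8.38 and 8.56 CPM in APOE4, against 4.56, 5.32, 4.02, 4.78 and 5.49 CPM in APOE3. Behind these stand 267 to 417 reads per APOE4 library and 194 to 267 reads per APOE3 library. The mean and SD were 9.24 ± 1.64 CPM for the 5 APOE4 mice and 4.83 ± 0.595 CPM for the 5 APOE3 mice. The log2 fold change was 0.93, with a standard error of 0.13, and is given without a test. The APOE4 library with the most reads, FH66 at 46887242, was at 8.56 CPM, and the part of depth in these levels was not tested.

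The APOE4D mice had the Tmem72 level of APOE4. Their libraries were at 8.74, 11.2, 8.50, 9.31 and 8.57 CPM, with a mean of 9.27 ± 1.14 CPM against 9.24 ± 1.64 CPM in APOE4 (SD, n = 5 each). The log2 fold change of APOE4D against APOE4 was 0.0065 (standard error 0.12). For APOE4D against APOE3 it was 0.94 with a standard error of 0.13, and 0.92 without F61N, and the ranges of these groups lay apart.

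APOE2 was at 6.52, 6.26, 6.04, 6.82 and 4.02 CPM. The mean was 5.93 ± 1.11 CPM against 9.27 ± 1.14 CPM in APOE4D (SD, n = 5 mice in either group), a log2 fold change of -0.64 with a standard error of 0.13. All 5 APOE2 libraries lay below all 5 APOE4D libraries. Against APOE4 the log2 fold change was -0.63 (standard error 0.13), again with no overlap. Against APOE3 it was 0.30 (standard error 0.13), and these groups overlapped. Without F35J, the APOE2 library at 4.02 CPM, the log2 fold change against APOE3 was 0.42.

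**Figure D1:**
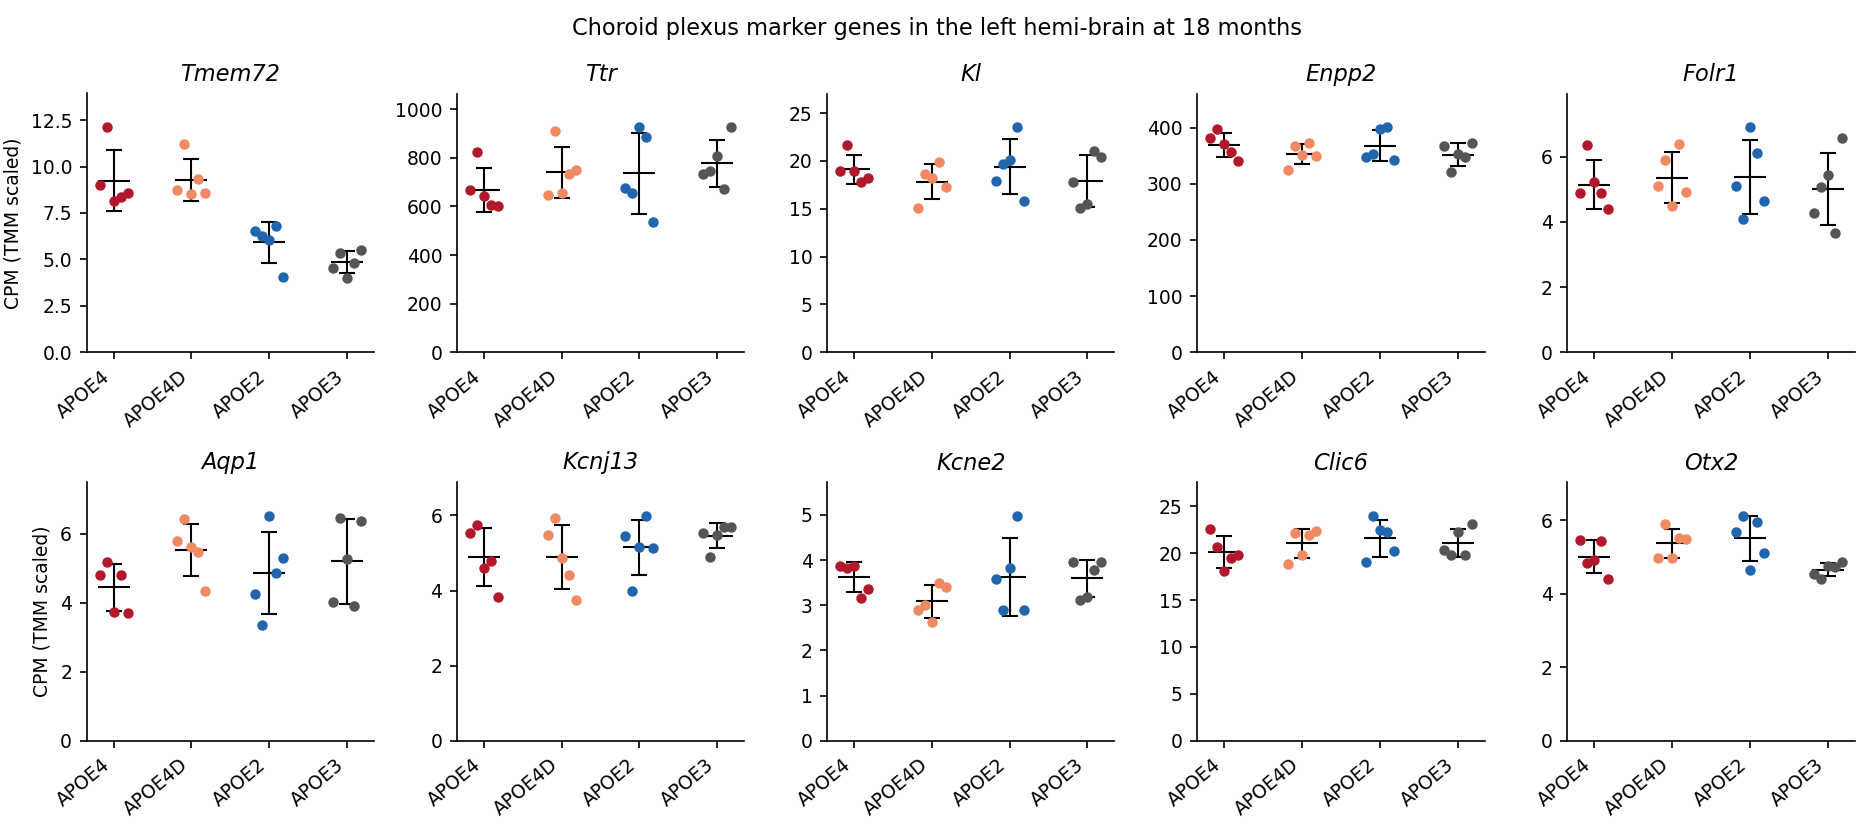
CPM (TMM scaled, linear axes from 0) of each of the 10 markers in the 20 libraries, 1 point per mouse, with the mean and SD of each genotype in black. For Tmem72 the 10 APOE4 and APOE4D libraries lie at 8.14 CPM or more and the 10 APOE2 and APOE3 libraries at 6.82 CPM or less, while the genotypes overlap in the other 9 genes except Otx2 in APOE4D against APOE3.

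Of the other 9 members, none passed the threshold (adjusted p under 0.05) in any of the 6 comparisons, by edgeR's quasi-likelihood test, by DESeq2 or by limma-voom. Among all genes tested by edgeR, 21.0% passed in APOE4 against APOE3, 8.41% in APOE4D against APOE3, 4.89% in APOE2 against APOE3, 5.89% in APOE2 against APOE4 and 4.12% in APOE2 against APOE4D. In APOE4D against APOE4 0% of the 21041 genes did, with 2293 genes and none of the 9 at an unadjusted p under 0.05.

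The median log2 fold change of the other 9 members was 0.0044 in APOE4 against APOE3, -0.0028 in APOE4D against APOE3, 0.04 in APOE2 against APOE3, 0.08 in APOE2 against APOE4, 0.06 in APOE4D against APOE4 and 0.04 in APOE2 against APOE4D. The median of all genes tested lay between -0.01 and 0.0027 in these comparisons. Only Otx2 of the 9 had an unadjusted p under 0.05 by edgeR, in APOE2 and APOE4D against APOE3. The lowest adjusted p among them was 0.139, for Otx2 in APOE2 against APOE3.

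Ttr encodes transthyretin, the carrier of thyroxine and retinol that the choroid plexus secretes into the cerebrospinal fluid. It was at 668, 824, 644, 608 and 600 CPM in APOE4, against 734, 748, 808, 672 and 926 CPM in APOE3. The groups overlapped, and the log2 fold change of -0.22 had a standard error of 0.15 (adjusted p = 0.342, edgeR's quasi-likelihood test). In APOE4D Ttr was at 647 to 911 CPM and in APOE2 at 534 to 926 CPM, the widest relative spread within any genotype for this gene (CV 22.4%). The APOE2 libraries alone, with 22976 to 41837 reads of Ttr, thus spanned the means of the other 3 genotypes (669, 740 and 777 CPM in APOE4, APOE4D and APOE3).

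Among the transporters of solutes, Folr1, the receptor that carries folate into the cerebrospinal fluid, was at 4.39 to 6.36 CPM in APOE4, 4.49 to 6.40 in APOE4D, 4.09 to 6.90 in APOE2 and 3.67 to 6.57 CPM in APOE3. Aqp1, the water channel of the ventricular membrane, was at 3.70 to 5.17 CPM in APOE4, 4.35 to 6.44 in APOE4D, 3.36 to 6.53 in APOE2 and 3.90 to 6.47 CPM in APOE3. For both genes the 4 ranges overlapped widely. Aqp1 had the largest log2 fold change of the other 9 in any comparison, 0.32 in APOE4D against APOE4, with a standard error of 0.17 (adjusted p = 0.497, edgeR's quasi-likelihood test).

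Of the channel genes, Kcnj13, an inward rectifier potassium channel, was at 3.83 to 5.75 CPM in APOE4, 3.75 to 5.94 in APOE4D, 3.99 to 5.99 in APOE2 and 4.89 to 5.70 CPM in APOE3. Kcne2, a subunit that pairs with potassium channel pores, was at 3.17 to 3.87 CPM in APOE4, 2.63 to 3.49 in APOE4D, 2.88 to 4.98 in APOE2 and 3.11 to 3.95 CPM in APOE3. Clic6, of the chloride intracellular channel family, was at 18.1 to 22.6 CPM in APOE4, 18.9 to 22.4 in APOE4D, 19.02 to 24.0 in APOE2 and 19.8 to 23.1 CPM in APOE3. The smallest adjusted p of the 3 genes over all 6 comparisons was 0.313, for Kcne2 in APOE4D against APOE3 (log2 fold change -0.22, standard error 0.13, edgeR's quasi-likelihood test).

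Kl encodes Klotho, a co-receptor of fibroblast growth factor 23 that is shed into the cerebrospinal fluid. It was at 17.8 to 21.6 CPM in APOE4, 15.1 to 19.9 in APOE4D, 15.8 to 23.5 in APOE2 and 15.1 to 21.0 CPM in APOE3. Enpp2 encodes autotaxin, the secreted enzyme that makes lysophosphatidic acid, and was at 342 to 397 CPM in APOE4, 325 to 372 in APOE4D, 343 to 401 in APOE2 and 321 to 372 CPM in APOE3. Enpp2 had the smallest spread within genotypes of the 10 (SD 0.09 on the log2 scale), and its log2 fold changes lay between -0.07 and 0.07 in the 6 comparisons. With standard errors of 0.05, its precision was higher than that of Aqp1 or Folr1, whose standard errors were 0.15 to 0.18.

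Otx2, the homeodomain factor that keeps the choroid plexus fate, was at 5.46, 4.82, 4.91, 5.44 and 4.41 CPM in APOE4 and at 4.97, 5.88, 4.97, 5.52 and 5.48 CPM in APOE4D. It was at 5.67, 6.12, 4.65, 5.95 and 5.12 CPM in APOE2 and at 4.54, 4.39, 4.76, 4.72 and 4.86 CPM in APOE3. APOE3 was thus the tightest group and the lowest on average, at 4.65 ± 0.186 CPM (SD, n = 5). APOE4D did not overlap with APOE3, yet the log2 fold change of 0.20 (standard error 0.09) had an adjusted p of 0.161, and for APOE2 against APOE3 it was 0.24 (standard error 0.09, adjusted p = 0.139, edgeR's quasi-likelihood test).

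**Figure D2:**
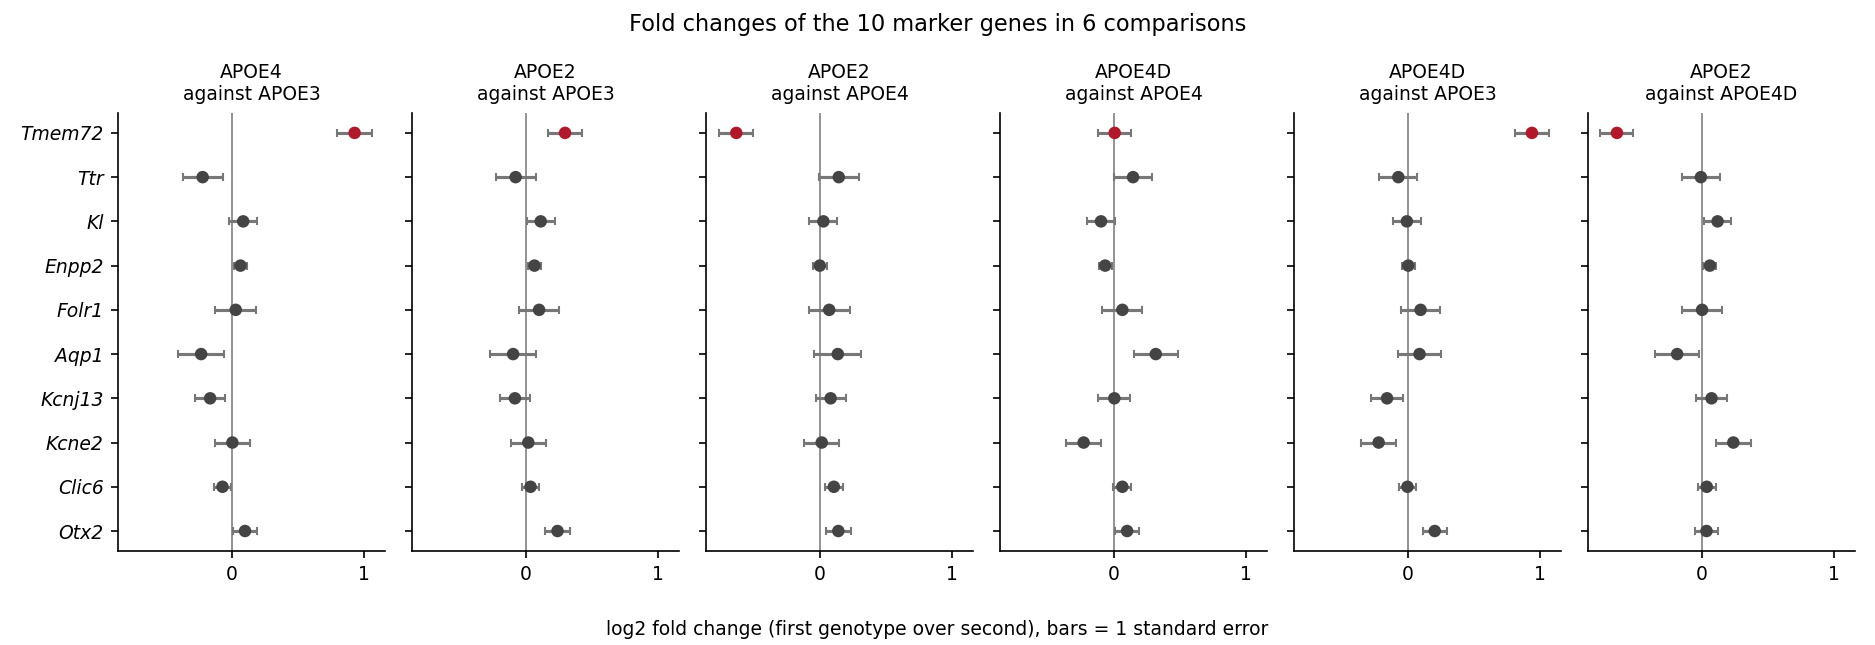
Log2 fold changes of the 10 markers (first genotype over second, bars 1 standard error) in the 6 comparisons. Tmem72, in red, is at 0.93 and 0.94 in APOE4 and APOE4D against APOE3 and at -0.63 and -0.64 in APOE2 against APOE4 and APOE4D, while the other 9 lie between -0.23 and 0.32.

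Tmem72 was also set against the other markers within each library. Per 1000 reads of Ttr, there were 12.6 to 14.7 reads of Tmem72 in APOE4, 11.4 to 13.5 in APOE4D, 6.53 to 9.64 in APOE2 and 4.97 to 7.11 in APOE3. Taken against each of the other 9 members in turn, the 10 APOE4 and APOE4D libraries lay above all 10 APOE2 and APOE3 libraries for 6 of them (Ttr, Kl, Kcnj13, Clic6, Otx2 and Enpp2) and overlapped for Folr1, Aqp1 and Kcne2. The mean log2 CPM of the other 9 was 4.17 ± 0.12 in APOE4, 4.20 ± 0.10 in APOE4D, 4.23 ± 0.17 in APOE2 and 4.20 ± 0.11 in APOE3 (SD, n = 5 each). With that mean as a covariate of the fit, the log2 fold change of Tmem72 was -0.68 in APOE2 against APOE4D and 0.94 in APOE4D against APOE3.

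Over the 20 libraries Tmem72 followed the other markers little, with Pearson correlations of log2 CPM from -0.16 (Kcnj13) to 0.33 (Otx2) and a median of 0.08. Once the mean of each genotype was taken off, the same correlations were all positive, at 0.21 (Aqp1) to 0.72 (Ttr), with a median of 0.43. In each of the 4 genotypes the mouse with the most Tmem72 was also the mouse with the highest mean of the other 9: F78N in APOE4, FH85 in APOE4D, FH111 in APOE2 and F64M in APOE3. The lowest mouse was the same for both only in APOE4D (FH68). For Tmem72 and the other 9 it was F58M and FH66 in APOE4, F35J and F74M in APOE2, and F39N and F10N in APOE3. The 36 pairs among the other 9 had a median correlation of 0.34 over libraries and 0.39 within genotypes, so for them the genotype means made little difference. Ttr with Folr1 (0.81) and Ttr with Enpp2 (0.78) were the closest of the pairs with Ttr within genotypes. All of these correlations are over 20 libraries that share the depth and composition of each library, and they are descriptions.

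**Figure D3:**
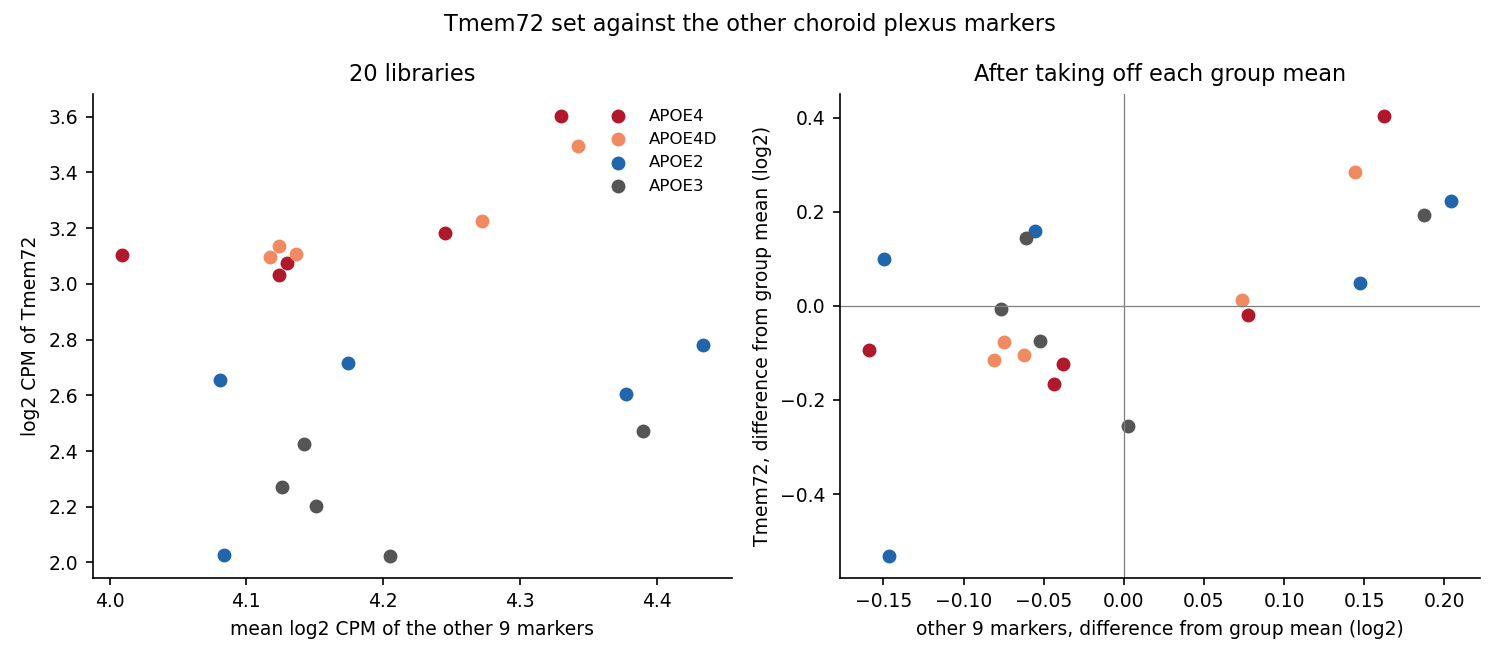
Log2 CPM of Tmem72 against the mean log2 CPM of the other 9 markers, 1 point per library and 1 colour per genotype, as measured (left) and after each genotype's mean was taken off both axes (right). On the left the APOE4 and APOE4D libraries form a band above the APOE2 and APOE3 libraries at the same level of the other markers (r = 0.17 over all 20), and on the right the 20 libraries share 1 upward trend (r = 0.63).

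The genes whose pattern over the 20 libraries was most like that of Tmem72, among 21040 ranked by Pearson correlation of log2 CPM, were Vps33a (0.89), Prickle2 (0.88), Slc1a4 (0.88), Cecr2 (0.87) and Asns (0.87). Vps33a encodes a subunit of the endosomal tethering complexes, Slc1a4 a neutral amino acid transporter and Asns asparagine synthetase, and none of these is a choroid plexus marker. Prickle2, Cecr2 and Asns lie on chromosome 6, as Tmem72 does, beside 4.98% of all ranked genes with a position. The genes most like the mean of the other 9 members were Zswim3 (0.77), Gm13391 (0.73), Adcy2 (0.73), 1110051M20Rik (0.71) and Akr1b3 (0.71), and Tmem72 came at place 5057 in that order (0.17).

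The genes beside Tmem72 on chromosome 6 were read from the same fits. The 3 nearest measured genes on one side were Rassf4, Depp1 and Zfp422, and on the other Cxcl12, Gm9946 and Zfp637. Of these 6, Rassf4, a RAS association domain gene 17.7 kb away, was higher in APOE4 than in APOE3 by a log2 fold change of 0.22 (adjusted p = 0.0339 by edgeR's quasi-likelihood test). Leaving out any of 5 of the 10 libraries ended it as a call. The other 5 did not pass in that comparison. In APOE2 against APOE4 Cxcl12 (-0.32, adjusted p = 0.00256) and Gm9946 (-0.69, adjusted p = 0.0156, same test) passed as lower, and the rest of the 6 did not. In APOE2 against APOE4D neither Cxcl12 (-0.15, adjusted p = 0.218) nor Gm9946 (-0.19, adjusted p = 0.740, same test) passed. In APOE4D against APOE3 the log2 fold change of Rassf4 was 0.13 (adjusted p = 0.276, same test). Within 1 Mb of Tmem72, 9 of 21 measured genes passed in APOE4 against APOE3 (5 higher and 4 lower, beside 21.0% of all genes), 7 in APOE4D against APOE3 (4 higher and 3 lower, beside 8.41%) and 6 in APOE2 against APOE4 (2 higher and 4 lower, beside 5.89%). In APOE2 against APOE4D there were 3 (beside 4.12%): Efcab12 was higher, and Tmcc1 and Washc2 were lower. The call of Washc2 there was lost with either of 2 libraries left out, and those of Tmcc1 and Washc2 without the mice whose ID begins with FH. By edgeR none of the 21 passed in APOE2 against APOE3 or in APOE4D against APOE4, with 6 and 4 genes at an unadjusted p under 0.05. Efcab12, named after its values were seen, was the furthest from 0 of those that passed in APOE4 against APOE3 and in APOE4D against APOE3. Its log2 fold changes there were -0.68 and -0.63, in the direction opposite to Tmem72.

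**Figure D4:**
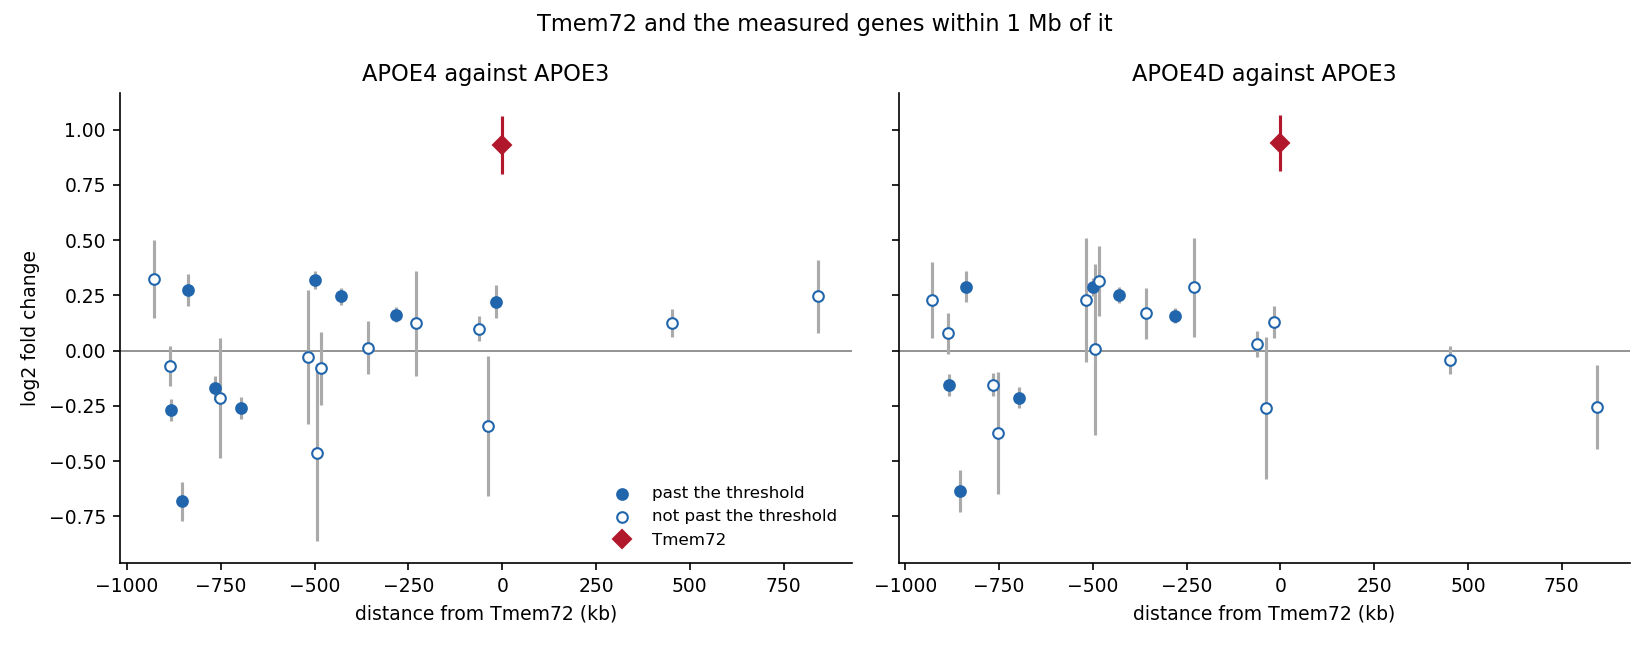
Log2 fold changes (bars 1 standard error) of Tmem72 and the 21 measured genes within 1 Mb of it, by distance from Tmem72 in kb, for APOE4 against APOE3 (left) and APOE4D against APOE3 (right). Tmem72 stands at 0.93 and 0.94, and the neighbours lie between -0.68 and 0.32 on both sides of 0, with filled points for those past the threshold.

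Of the further 36 choroid plexus epithelium genes few passed, and in both directions. In APOE4 against APOE3, 6 of the 36 passed (16.7%, beside 21.0% of all genes), of which 2 were higher (Prlr and Col8a1) and 4 lower (Ace, Spint2, Trpv4 and Cox8b), and the median log2 fold change was -0.04. In APOE2 against APOE3 there were 3 (Car12 higher, a call lost without the FH mice, Cox8b and Spint2 lower), beside 4.89% of all genes. In APOE2 against APOE4 there were 2 (Calml4 higher, Prlr lower), beside 5.89%, in APOE4D against APOE3 1 (Ace, lower), beside 8.41%, in APOE2 against APOE4D 1 (Car12, higher), beside 4.12%, and in APOE4D against APOE4 none by edgeR, DESeq2 or limma-voom (5 at an unadjusted p under 0.05 by edgeR). Leaving out 1 of the 10 libraries compared ended the calls of Col8a1, Cox8b and Trpv4 in APOE4 against APOE3 (for 2, 5 and 5 of the libraries), of Prlr and Calml4 in APOE2 against APOE4 (for 7 and 5 of the libraries), of Ace in APOE4D against APOE3 (for 4) and of Car12 in APOE2 against APOE4D (for 1). Of these calls, those of Cox8b, Trpv4, Calml4, Ace and Car12 were also lost without the FH mice. The summed level of the 36 genes was 451 to 476 CPM in APOE4, 441 to 464 in APOE4D, 442 to 474 in APOE2 and 448 to 469 CPM in APOE3, so the 4 genotypes overlapped. This sum rests largely on a few abundant genes, such as Vat1l and Htr2c (means of 97.8 and 74.2 CPM in APOE4), and says little about the low ones.

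Prlr, the prolactin receptor, was the gene of this list with the largest rise in APOE4 against APOE3, with 13.7 ± 1.67 CPM for APOE4 mice against 9.26 ± 1.36 CPM for APOE3 mice (SD, 5 per group). Its log2 fold change was 0.56 (adjusted p = 0.000620 by edgeR's quasi-likelihood test). APOE4D libraries had 10.7 ± 1.21 CPM of Prlr, and its log2 fold change there was -0.36 against APOE4 (adjusted p = 0.254) and 0.20 against APOE3 (adjusted p = 0.236, same test). Spint2, a serine protease inhibitor, was lower in APOE4 than in APOE3 by a log2 fold change of -0.26 (adjusted p = 0.00163) and lower in APOE2 than in APOE3 by -0.25 (adjusted p = 0.00703, a call lost without the mice whose ID begins with FH). Ace, angiotensin-converting enzyme, was lower in APOE4 than in APOE3 by -0.33 (adjusted p = 0.000756). Cox8b, which encodes a cytochrome c oxidase subunit, had 0.885 ± 0.160 CPM for APOE2 mice against 1.74 ± 0.386 CPM for APOE3 mice (SD, 5 per group), and its log2 fold change was -0.98 (adjusted p = 0.00147, edgeR's quasi-likelihood test).

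Around the members' own tasks, single genes of ion transport, hormone and folate handling passed. Of 16 genes of ion transport in fluid secretion, 2 passed in APOE4 against APOE3 (beside 21.0% of all genes), both higher: Slc12a2, a sodium, potassium and chloride cotransporter whose call was lost without the FH mice, and Slc4a10. Slc4a10, a sodium bicarbonate transporter also used by neurons, was higher in APOE4 (log2 fold change 0.31, adjusted p = 0.00119, edgeR's quasi-likelihood test). Among 13 genes of retinol and thyroid hormone handling, Thrb, a thyroid hormone receptor, was higher in APOE4 against APOE3 by 0.34 on the log2 scale (adjusted p = 5.30e-05 by edgeR's quasi-likelihood test). Crabp2 and Thra passed there as lower, in a comparison where 21.0% of all genes passed. The calls of Crabp2 and Thra were lost without the FH mice, and that of Thra also with APOE4 and APOE4D joined. Of 12 genes of folate uptake and one-carbon metabolism, 3 passed in APOE4 against APOE3 (beside 21.0% of all genes), Mthfd2 higher and Shmt1 and Aldh1l1 lower (the last 2 calls ended with any of 5 and of 7 of the 10 libraries left out), with Mthfd2, a mitochondrial folate enzyme, averaging 10.3 ± 0.504 CPM for APOE4 mice against 7.14 ± 0.455 CPM for APOE3 mice (SD, 5 per group). The log2 fold change of Mthfd2 was 0.52 (adjusted p = 9.71e-05, edgeR's quasi-likelihood test). Of 9 genes of lysophosphatidic acid signalling, the pathway of the Enpp2 product, none passed in APOE4 against APOE3 (beside 21.0% of all genes). This held for each of the 3 tools and at an unadjusted p under 0.05. In APOE2 against APOE4D 1 passed, beside 4.12% of all genes (Lpar5, lower, a call that ended with any of 8 of the 10 libraries left out).

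Markers of cells next to the epithelium are given because a hemi-brain carries varying amounts of them. The 5 blood genes (globins and Alas2) all passed as lower in APOE4 than in APOE3 (beside 21.0% of all genes). Their summed level was 72.9 to 121 CPM in APOE4, 73.95 to 219 in APOE4D, 85.5 to 172 in APOE2 and 149 to 401 CPM in APOE3. All 5 calls were lost without the mice whose ID begins with FH. Those of Alas2 and Hbb-bt were also lost with any of 4 and of 6 of the 10 libraries left out. In APOE2 and in APOE4D against APOE3 all 5 had an unadjusted p under 0.05 by edgeR, beside 4165 and 5001 of all genes. In APOE2 against APOE3 1 passed by edgeR (Hba-a2, lower, beside 4.89%), and 5 by DESeq2 and by limma-voom. The edgeR call was lost without the FH mice and with any of 6 libraries left out. In APOE4D against APOE3 0 passed by edgeR, 2 by DESeq2 and 3 by limma-voom. In APOE2 against APOE4D none of the 5 passed by edgeR, DESeq2 or limma-voom, and none had an unadjusted p under 0.05 by edgeR. The 13 fibroblast genes summed to 423 to 489 CPM in APOE4, 432 to 554 in APOE4D, 466 to 536 in APOE2 and 488 to 771 CPM in APOE3. Of these 13, 2 passed as lower in APOE4 against APOE3, Mgp and Apod (15.4%, beside 21.0% of all genes). Both calls were lost without the FH mice, and with any of 2 and of 6 of the 10 libraries left out. The 10 oligodendrocyte genes summed to 6880 to 7945 CPM in APOE4, 7619 to 8201 in APOE4D, 6738 to 9329 in APOE2 and 7197 to 8199 CPM in APOE3. Ermn and Ugt8a passed as higher in APOE4 against APOE3 (20% of the 10, beside 21.0% of all genes). Of 8 thalamus and midbrain genes, Shox2 and Prkcd passed as lower in that comparison (25%, beside 21.0% of all genes). Both calls were lost without the FH mice, and with any of 3 and of 8 libraries left out. Of the same 8, 3 passed in APOE4D against APOE3, all lower (37.5%, beside 8.41%). In APOE2 against APOE3 2 passed, 1 higher and 1 lower (25%, beside 4.89%). Shox2 and Prkcd passed as higher in APOE2 against APOE4 (beside 5.89%) and against APOE4D (beside 4.12%). Of these further calls, that of Prkcd in APOE2 against APOE4 held under every alternative, and the rest did not. Of 5 pineal genes 2 were tested, and Aanat, an enzyme of melatonin synthesis, passed as lower in APOE4 against APOE3 (beside 21.0% of all genes). The 15 ependymal genes, of the ciliated cells that line the ventricle, summed to 112 to 135 CPM in APOE4, 118 to 142 in APOE4D, 123 to 142 in APOE2 and 120 to 139 CPM in APOE3, with overlap between all genotypes. By edgeR's quasi-likelihood test 1 of the 15, Ccdc153, passed as lower in APOE2 against APOE3 (log2 fold change -1.01, adjusted p = 0.000283). It was also lower in APOE2 against APOE4 (-0.94, adjusted p = 0.000562) and against APOE4D (-0.97, adjusted p = 0.000560, same test). Each time this was 6.67% of the 15, beside 4.89%, 5.89% and 4.12% of all genes. No alternative ended these calls of Ccdc153. The part of these other cells and of depth in the Tmem72 levels was not tested.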

How the data were processed

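Libraries were assigned to genotypes by their labels, 5 per group, and the mouse IDs name them. The values used are whole-number read counts by gene symbol, as deposited, without normalization. The submitters' processing notes list the tools STAR 2.7.0 and featureCounts and the build GRCm38 (mm10), and whether counting used strand is not stated. The deposited normalized counts and comparison tables of fold changes and p-values from DESeq2 were not used here.

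Fits were run with edgeR 4.0.16 in R 4.3.3. A gene entered a fit if it passed 0.1 CPM in over 40% of its libraries. After TMM scaling, the quasi-likelihood test of edgeR (robust) gave p-values, which were adjusted by Benjamini-Hochberg over all genes tested, with a threshold of 0.05. Comparisons among APOE4, APOE2 and APOE3 came from a fit of 15 libraries and those with APOE4D from a fit of 20. Standard errors were the size of the log2 fold change over the square root of F. Log2 CPM for correlations had a prior count of 2. The same steps were tested on simulated counts. Depth was 32404258 to 51960932 reads per library, so the lower members rest on about 96 to 417 reads and can miss small differences. Nothing in the labels says that mice came from separate litters, and p-values measure the spread between these mice.

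The members and the 16 other gene lists were chosen with earlier results of these data known. Named were all 10 members, up to 4 genes per other list and comparison with the smallest p among those past the threshold, of which the text gives a part, the 5 genes most like Tmem72 and the 5 most like the mean of the other 9, and the 3 nearest genes on each side of Tmem72. Trpv4, Hbb-bt, Efcab12, Tmcc1 and Washc2 were added after their values were seen. One result of the list of retinol and thyroid hormone handling is not reported here. Of 55291 symbols, 38990 matched a RefSeq position on GRCm38. Alternatives were DESeq2 1.42.0, limma-voom (limma 3.58.1), RLE size factors, no filter, filterByExpr, fits of only the 2 groups compared, the FH mice left out, APOE4 and APOE4D joined, the level of the other 9 members as a covariate, and each library left out in turn. Plots were made in Python 3.11.15 (matplotlib 3.10.9).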

Additional observations from a re-analysis of the deposited data

Results flagged for a closer look

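In 3 of 52 groups of 5 libraries, 1 library lay apart from the other 4 by Dixon's ratio (critical value 0.71), where chance gives about 1 in 20 groups. Tmem72 in APOE4 was at 12.1 CPM in F78N, against 8.14 to 9.02 CPM in the other 4 APOE4 libraries (ratio 0.777). F78N also had the highest Ttr and the highest mean of the other 9 members in APOE4. Tmem72 in APOE2 was at 4.02 CPM in F35J, against 6.04 to 6.82 CPM in the other 4 APOE2 libraries (ratio 0.722), and F35J also had the lowest Ttr of all 20 libraries, at 534 CPM. Kcnj13 in APOE3 was at 4.89 CPM in F37N, against 5.47 to 5.70 CPM in the other 4 APOE3 libraries (ratio 0.717).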

How the results depend on the processing

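Across the settings that kept all libraries or left out the FH mice, the log2 fold change of Tmem72 was -0.73 to -0.64 in APOE2 against APOE4D and -0.85 to -0.63 in APOE2 against APOE4. With 1 library left out it was -0.70 to -0.53 in APOE2 against APOE4D, -0.69 to -0.52 in APOE2 against APOE4, 0.85 to 0.995 in APOE4D against APOE3, 0.82 to 0.99 in APOE4 against APOE3, -0.07 to 0.12 in APOE4D against APOE4 and 0.24 to 0.42 in APOE2 against APOE3. In APOE2 against APOE3 the highest of these values, 0.42, was the one without F35J. Of the other 9 members, 1 call was gained over 990 values, Ttr in APOE4 against APOE3 with the level of the 9 as a covariate (-0.16, adjusted p = 0.0313), a mean that includes Ttr. No paired analysis was possible because the labels number no replicates across genotypes.

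Counts over all genes moved more. Without the FH mice they were 1403 in APOE4 against APOE3 (4422 with them), 537 in APOE2 against APOE4 (1238), 464 in APOE4D against APOE3 (1769) and 287 in APOE2 against APOE4D (867), from fewer libraries. In APOE4D against APOE4 they were 10 with no filter, 34 with DESeq2 and 210 with only these groups fitted, against 0. With only 2 groups fitted they were 637 in APOE2 against APOE3 (1029) and 1889 in APOE2 against APOE4. Without F61N they were 2533 in APOE2 against APOE3 and 3338 in APOE4D against APOE3. The cause was not tested. Of 74 calls among genes of the other lists, 24 held under every alternative. Small shifts of the members with under 500 reads cannot be resolved at this depth.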
